A study of Mus musculus with 8 samples.

Results

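The stage interaction of splicing between Larp7 knock-out and wild-type germ cells asks whether a splicing difference seen in spermatocytes differs in size from the one seen in round spermatids. Its members are the splicing events listed for both stages with the same event type, chromosome, strand and coordinates. They came to 36162 of the 82857 distinct events in the deposited tables, and 32424 of them, in 7793 genes, had enough reads to be tested. The other 29960 spermatocyte events and 16735 round spermatid events had no identical counterpart and were left out.

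The study sequenced polyadenylated RNA from 4 groups of 2 libraries: Larp7 knock-out spermatocytes, wild-type spermatocytes, Larp7 knock-out round spermatids and wild-type round spermatids. All came from adult C57BL/6 mice, the knock-out was conditional, and the cells were sorted by FACS after Hoechst staining of their DNA. The sources used here name neither the Cre driver nor the number of animals behind a library, so p-values measure the spread between libraries. Spermatocytes are the germ cells in meiosis, and round spermatids are the haploid cells that follow. The tables number the sample groups of a stage 1 and 2 and do not say which genotype each is, so values are given under those numbers and no genotype is attached to a direction. Differences are group 1 minus group 2, and the interaction is that difference in spermatocytes minus that difference in round spermatids. This takes the groups to be listed in the same order in both stages.

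Larp7 is an RNA-binding protein that stabilises 7SK, a small nuclear RNA that holds the elongation kinase P-TEFb inactive. It also binds U6, the small nuclear RNA at the catalytic centre of the spliceosome, and guides its 2′-O-methylation, a modification known in mouse spermatogenic cells to bear on splicing fidelity. Testis is known for a very large repertoire of alternative transcripts, and many of them switch as spermatocytes become round spermatids. An event compares an inclusion form, which keeps a cassette exon, a retained intron or the longer end of an exon, with a skipping form, which leaves it out. The inclusion level is the share of the inclusion form after both forms are normalised by length. Tests used the log2 odds of inclusion, the log2 ratio of the length-normalised forms.

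Reads over all events summed to between 49904607 and 102000320 per library, with library 2 of group 1 the deepest in each stage. Mean cassette exon inclusion per library lay between 83.9% and 85.3%. With 2 libraries against 2, an exact permutation test of a single event cannot give a p below 0.333, so every call rests on a spread shared across events by limma. In these bulk samples, fewer cells of a type and less RNA per cell cannot be told apart.

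Larp7 was examined first, and all 7 of its matched events were tested. Larp7 has the identifier ENSMUSG00000027968.11. On the minus strand of mm10 chromosome 3, its 125-nt cassette exon from 127544154 to 127544278 had inclusion levels of 2.40% and 0.951% in group 1 spermatocytes, against 100% in each group 2 library. Round spermatids had 0.279% and 0.598% in group 1, against 100% in each group 2 library. Group 2 of either stage held 0 skipping reads against 5947 to 6720 inclusion reads per library, and 3 skipping reads per library, the limit a count of 0 allows, would leave inclusion at 99.9% in each. Group 1 was therefore the one nearly without the exon in both tables. The exon was called in each stage (limma adjusted p = 3.15e-07 in spermatocytes and 9.85e-08 in round spermatids). Because this exon also serves to relate the groups of both stages, its difference within a stage is a description, and these calls are no independent result. Loss of the exon from the RNA and its deletion from the gene cannot be told apart. With one form at 0 reads in group 2, its interaction had a wide interval and was not called (log2 odds 1.51, 95% interval -6.49 to 9.51).

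Introns of the same gene gave the Larp7 values with the most information. An 85-nt intron (127547005 to 127547089) was retained at 31.7% and 28.2% in group 1, against 7.12% and 8.50% in group 2 spermatocytes. In round spermatids it was retained at 9.12% and 6.16% in group 1, against 3.85% and 4.08% in group 2. The groups did not overlap in either stage, and the spermatocyte libraries of group 1 stood apart from the other 6. In spermatocytes the intron had 235 and 434 inclusion reads in group 1 against 406 and 437 in group 2. Its skipping reads were 323 and 704 in group 1 against 3372 and 2996 in group 2. The higher level in group 1 thus went with fewer reads of the spliced form, not with more of the retained form. The interaction was 1.33 log2 odds (SE 0.35, 95% interval 0.65 to 2.02) and did not pass the test across all events (limma adjusted p = 0.39). Leaving out 1 library at a time gave values between 1.01 and 1.62. A neighbouring 72-nt intron (127546404 to 127546475) had retention levels of 14.2% and 16.4% in group 1 against 7.47% and 7.37% in group 2 spermatocytes, and of 7.16% and 5.93% in group 1 against 5.31% and 4.36% in group 2 round spermatids. Its interaction was 0.82 (SE 0.34, limma adjusted p = 0.59). Skipping reads of this intron were likewise fewer in group 1 spermatocytes, 424 and 963 against 3674 and 3421, and inclusion reads were not more. The remaining 4 Larp7 events were included at between 99.5% and 100% in every library and held 0 to 7 skipping reads, and none of their interactions was called.

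Across all 32424 tested events, none passed the interaction test at an adjusted p of 0.05 (limma, 0%). An unadjusted p below 0.05 was reached by 2666 events (8.22%). A quasi-binomial test of the reads also called 0 events. The smallest limma p was 1.55e-05, with an adjusted p of 0.21, and the first call would have needed 1.54e-06. In the listed order, group 1 is the one nearly without the Larp7 exon in both stages. The other order would set that group of one stage against its counterpart with the exon in the other stage, and it called 412 events, 411 of them with stage differences of the same sign in the listed order. The count of 0 rested on the libraries, since 8 events were called without library 2 of group 1 spermatocytes and 1 without library 2 of group 2 spermatocytes. It also rested on how libraries are related, since 8 events were called when the position of a library in its list was a term of the fit, although no label ties equal positions together.

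The precision behind these tests differed widely between events. The SE of the interaction had a median of 1.42 log2 odds over all tested events, and of 0.51 over the 9662 events whose rarer form averaged at least 20 reads. For 2780 events the 95% interval lay within 1 log2 odds on both sides of 0. For the other events the interval reached beyond 1 log2 odds in at least one direction.

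The 12 genes with the smallest interaction p are described next, and none of them passed. With 1 spermatocyte library left out, 7 of their events were called, those of Swi5, Eif4h, Nasp, Rit1, Adgrl1 and Xpo6 without library 2 of group 1 and that of Zmiz2 without library 2 of group 2. The limma adjusted p was then 0.0040 for Swi5 and 0.0072 for Nasp. Of their 12 events, 10 were called in spermatocytes and 0 in round spermatids, and 10 had stage differences of opposite sign. These events were picked by the interaction p, so such counts only describe them.

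Swi5, which forms a complex with Sfr1, had the smallest p. A 284-nt cassette exon (ENSMUSG00000044627.11, chromosome 2, 32280227 to 32280510, minus strand) had inclusion levels of 57.2% and 66.7% in group 1, against 77.2% and 78.5% in group 2 spermatocytes. In the later stage it was included at 81.9% and 80.8% in group 1, against 80.8% and 76.0% in group 2. The exon was lower in group 1 spermatocytes than in any other library. The interaction was -1.30 log2 odds (SE 0.30, 95% interval -1.89 to -0.71, limma adjusted p = 0.21).

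Rit1 encodes a small GTPase of the Ras family. A 211-nt Rit1 intron (88726069 to 88726279 on chromosome 3) was retained at 13.4% and 8.77% in group 1 against 2.10% and 1.56% in group 2 spermatocytes. In round spermatids it was retained at 4.46% and 2.08% in group 1 against 2.04% and 8.27% in group 2. The groups overlapped in round spermatids, and the interaction was 3.33 (SE 0.78, limma adjusted p = 0.21). Eif4h, a cofactor of the initiation helicase eIF4A, had a 60-nt cassette exon (chromosome 5, 134624441 to 134624500) with groups apart in both stages and in opposite directions. Its inclusion was 26.3% and 17.3% in group 1 against 14.1% and 11.0% in group 2 spermatocytes, and 23.0% and 25.8% in group 1 against 35.1% and 37.5% in group 2 round spermatids. The interaction was 1.59 (SE 0.37, limma adjusted p = 0.21).

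Rnf17 is a Tudor-domain protein of germ cell granules needed for spermatid development. A 164-nt exon (56500428 to 56500591 on chromosome 14) was included at 97.6% and 97.9% in group 1, against 93.1% and 91.3% in group 2 spermatocytes. In round spermatids the levels were 73.3% and 71.7% in group 1 and 77.0% and 76.0% in group 2. Group 1 libraries were thus the highest in spermatocytes and the lowest in round spermatids. The interaction was 2.19 (SE 0.53, limma adjusted p = 0.35). Nasp, a histone chaperone, had a 975-nt exon (chromosome 4, 116610403 to 116611377) at 98.4% and 99.3% in group 1 against 99.8% in both libraries of group 2 spermatocytes. In the later stage it stood at 99.2% and 99.6% in group 1 against 99.6% and 99.5% in group 2. This exon was covered by 54591 to 133848 inclusion reads per library but only 21 to 117 skipping reads, and the interaction was -1.87 (SE 0.48, limma adjusted p = 0.35).

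A pair of the 12 genes act in organelles that spermatids build. Ift122, a subunit of intraflagellar transport complex A, had a 177-nt exon (chromosome 6, 115882647 to 115882823) at 73.1% and 77.4% in group 1 against 85.3% and 83.6% in group 2 spermatocytes. In round spermatids it was included at 86.9% and 90.0% in group 1 against 84.3% and 84.7% in group 2, so group 1 was the lower one in spermatocytes and the higher one in round spermatids. Slc9a8, a sodium-proton exchanger needed for acrosome formation in mouse, showed the same arrangement. Its 148-nt exon (167474028 to 167474175 on chromosome 2) was included at 71.3% and 70.9% in group 1 against 87.0% and 88.9% in group 2 spermatocytes and at 80.8% and 78.0% in group 1 against 75.5% and 75.6% in group 2 round spermatids. The interactions were -1.31 (SE 0.33) for Ift122 and -1.85 (SE 0.49) for Slc9a8 (limma adjusted p = 0.35 and 0.40).

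Adgrl1, the adhesion receptor latrophilin-1, had a 135-nt intron (chromosome 8, 83937326 to 83937460) retained at 21.5% and 34.9% in group 1 against 81.3% and 72.4% in group 2 spermatocytes. In round spermatids the groups overlapped, at 47.6% and 50.3% in group 1 against 55.9% and 39.9% in group 2. The interaction was -3.21 (SE 0.80, limma adjusted p = 0.35). A 227-nt exon of Zmiz2, a transcriptional coactivator, was included at 56.8% and 63.1% in group 1 against 82.1% and 63.5% in group 2 spermatocytes and at 70.0% and 68.9% in group 1 against 61.1% and 46.4% in group 2 round spermatids. It was called in neither stage, and its interaction was -1.61 (SE 0.40, limma adjusted p = 0.35). The longer 5′ splice site form of a 1602-nt Xpo6 stretch, from the gene of the actin exporter exportin-6, stood at 7.02% and 5.06% in group 1 against 2.05% and 2.68% in group 2 spermatocytes and at 1.27% and 1.08% in group 1 against 1.04% and 1.70% in group 2 round spermatids. Its interaction was 1.57 (SE 0.41, limma adjusted p = 0.38). The Napb intron, from the gene of the vesicle fusion protein beta-SNAP, had 3 skipping reads in 1 library of group 2 spermatocytes and in 1 of group 1 round spermatids and 0 in the others, and its interaction of 6.79 had a 95% interval of 3.38 to 10.19. The Larp7 intron of 85 nt described above completes the 12.

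**Figure D1:**
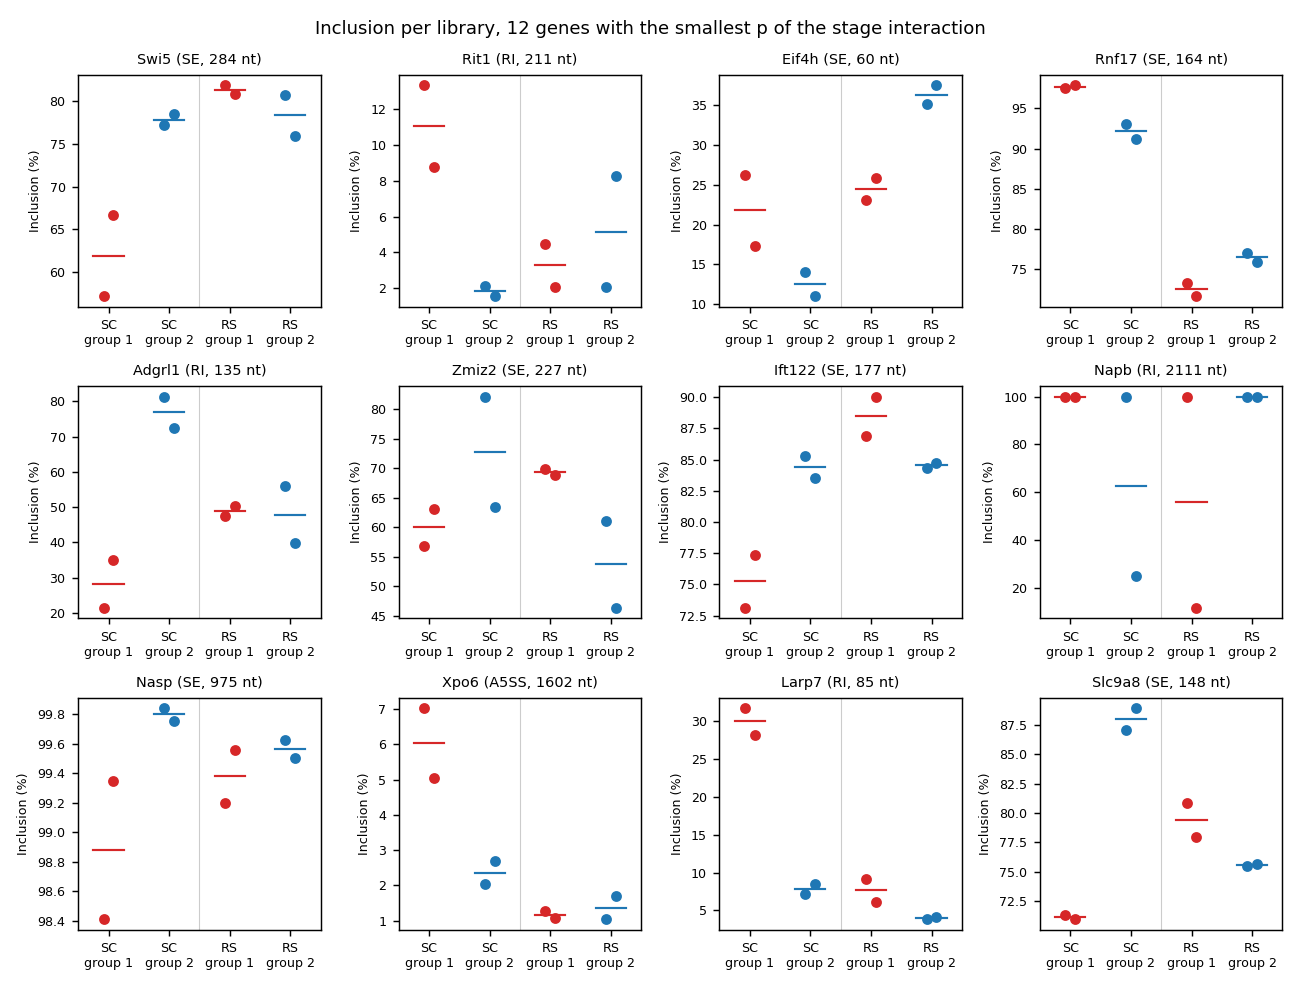
Inclusion level in percent of each library for the 12 genes with the smallest interaction p, with axes that do not start at 0. SC are spermatocytes, RS round spermatids, red points group 1 and blue points group 2, bars the mean of 2 libraries, and SE, RI and A5SS stand for cassette exon, retained intron and alternative 5′ splice site. Swi5 stands at 57.2% and 66.7% in group 1 spermatocytes and at 76.0% or more in the other 6 libraries.

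Differences within each stage came from the same fit. Of the 32424 tested events 590 (1.82%) were called in spermatocytes, 129 with higher inclusion in group 1 (0.398%) and 461 with lower (1.42%). In round spermatids 146 events (0.45%) were called, 45 higher (0.139%) and 101 lower (0.311%). A call in one stage and none in the other is no test of a difference between stages, and the interaction of these events was not called. Leaving out 1 spermatocyte library moved the spermatocyte count to 334 without library 1 and 830 without library 2 of group 1, and to 139 without library 1 and 138 without library 2 of group 2. Without round spermatid library 1 or 2 of group 1 it was 358 or 375. Leaving out 1 round spermatid library moved the round spermatid count to between 35 and 58.

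Both stage differences of each called event were set side by side. These events were called for their size in one stage, which is then the larger of the pair more often, so the sizes are a description. Of the 590 events called in spermatocytes, 478 (81%) had the same sign in round spermatids, against 57.6% of all tested events. Their median absolute difference in spermatocytes was 1.40 log2 odds, and the median difference in round spermatids along the same direction was 0.59. Of the 146 events called in round spermatids, 129 (88.4%) had the same sign in spermatocytes. Their median absolute difference in round spermatids was 1.33, and along that direction the median in spermatocytes was 0.86. An unadjusted interaction p below 0.05 was reached by 141 of the 590 (23.9%) and by 20 of the 146 (13.7%). Over all tested events the stage differences had a Pearson r of 0.10 and a Spearman rho of 0.14 across events, which share libraries and reads and are not independent.

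**Figure D2:**
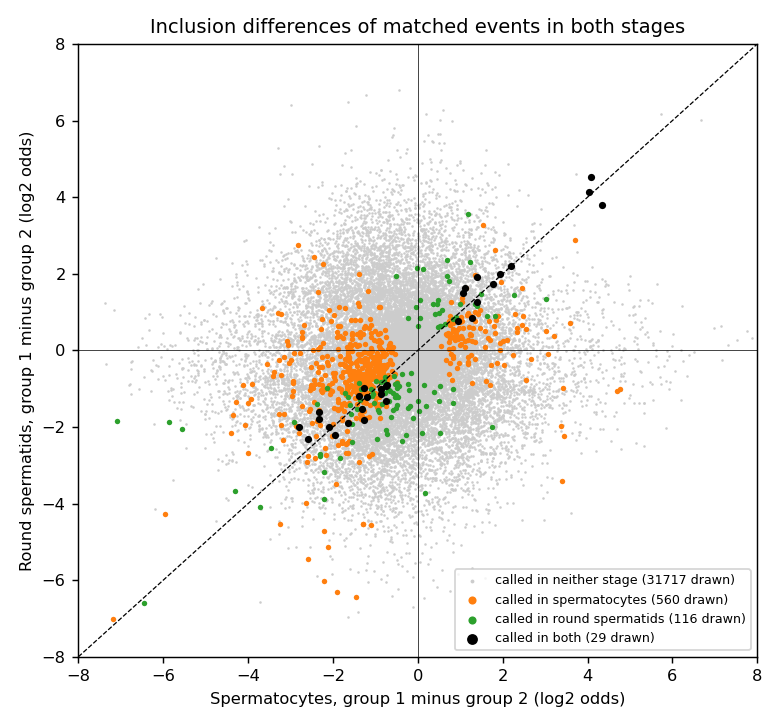
Difference of group 1 minus group 2 in log2 odds of inclusion, spermatocytes on the x axis and round spermatids on the y axis, 1 point per tested event; 2 events outside the axis limits are not drawn. The dashed line marks equal differences, and the 29 drawn events called in both stages (black) lie in the quadrants where the signs match. The 125-nt Larp7 exon, also called in both, is 1 of the 2 events not drawn.

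The 30 events called in both stages, in 27 genes, all had the same sign in both. One is the 125-nt Larp7 exon. The other 29, in 26 genes, comprised 12 with higher and 17 with lower inclusion in group 1. In 27 of the 29 the library levels of the groups did not overlap in either stage. Events called in both stages are picked for groups that lie apart, so this count only describes them. It was not made over all tested events. The interaction of these 29 was at most 0.80 log2 odds in absolute size, and for 9 of them the 95% interval lay within 1 on both sides of 0. The number called in both stages was 7 to 26 when 1 library was left out, and in each of these sets every event had the same sign in both stages. The lowest count came without round spermatid library 2 of group 2, and leaving out any library other than the spermatocyte libraries of group 1 moved the count to 15 or fewer.

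Of these 29 events, 3 belong to genes listed for acrosome and sperm surface (Catsperd, Adam3 and Adam32) and 0 to genes listed for flagellum and cilium. Those lists have 556 and 629 of the 32424 tested events, of which 30 were called in both stages. The count of 0 is near that share and depends on the list. Cep128, with a 64-nt exon called in both stages, is not on the flagellum and cilium list, while Cep164 is. No contrast between the lists is drawn from these counts. Catsperd, a subunit of the sperm calcium channel CatSper, had a 114-nt exon (chromosome 17, 56654435 to 56654548) included at 89.8% and 92.1% in group 1 against 80.1% and 79.6% in group 2 spermatocytes. In the later stage it was included at 87.0% and 83.0% in group 1 against 71.3% and 66.5% in group 2. Group 1 was higher in both stages, and the interaction was 0.12 (SE 0.35, 95% interval -0.57 to 0.82). Adam3, a sperm surface protein needed in mouse for migration into the oviduct, had an 82-nt exon (chromosome 8, 24710218 to 24710299) at 92.7% and 93.1% in group 1 against 96.7% and 97.9% in group 2 spermatocytes. Its round spermatid levels were 95.4% and 95.9% in group 1 against 98.1% and 98.0% in group 2, lower again in group 1, and the interaction was -0.17 (SE 0.37). Atp8b3, an aminophospholipid flippase of the acrosomal region, had 3 exons called in both stages, all lower in group 1, with interactions between 0.14 and 0.25. Crisp2, a cysteine-rich secretory protein of acrosome and tail, had an 89-nt exon at 98.1% and 98.2% in group 1 against 99.1% and 99.3% in group 2 spermatocytes and at 99.0% and 98.7% in group 1 against 99.5% in both libraries of group 2 round spermatids. Its interaction was 0.00 (95% interval -0.75 to 0.74).

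Dnm2, the GTPase dynamin 2 of endocytosis, had a 12-nt exon (chromosome 9, 21490658 to 21490669) included at 84.5% and 87.1% in group 1 against 71.3% and 69.3% in group 2 spermatocytes and at 91.2% and 88.2% in group 1 against 71.4% and 65.6% in group 2 round spermatids. All 4 libraries of group 1 exceeded all 4 of group 2, and the interaction was -0.50 (SE 0.33, 95% interval -1.14 to 0.15). Cadm1, an adhesion protein between germ cells and Sertoli cells, had an 84-nt exon (chromosome 9, 47818734 to 47818817) at 69.8% and 64.9% in group 1 against 44.8% and 45.9% in group 2 spermatocytes. In round spermatids it stood at 53.5% and 63.3% in group 1 against 42.8% and 48.4% in group 2, and the interaction was 0.41 (SE 0.40). Trmt10a, a tRNA methyltransferase, had a 107-nt exon (chromosome 3, 138146287 to 138146393) at 65.0% and 62.0% in group 1 against 53.3% and 38.0% in group 2 spermatocytes and at 62.4% and 56.6% in group 1 against 36.8% and 30.0% in group 2 round spermatids. Its groups did not overlap in either stage (interaction -0.43, SE 0.39). Ssbp4, a single-stranded DNA-binding protein, had a 60-nt exon at 79.3% and 74.6% in group 1 against 34.5% and 46.8% in group 2 spermatocytes and at 87.5% and 78.5% in group 1 against 41.6% and 51.9% in group 2 round spermatids. Both differences exceeded the spread between libraries, and the interaction was 0.01 (SE 0.64).

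A few events called in both stages had libraries of one group far apart. A 96-nt exon of Ccdc7a was included at 93.6% and 36.3% in group 1, against 10.8% and 14.0% in group 2 spermatocytes. In the later stage it was included at 94.3% and 29.6% in group 1, against 26.7% and 7.99% in group 2. The 153-nt exon of 1810062O18Rik stood at 80.6% and 37.1% in group 1 against 86.9% and 80.3% in group 2 spermatocytes and at 67.0% and 20.9% in group 1 against 65.3% and 81.2% in group 2 round spermatids, with overlapping groups in the later stage. In both genes library 1 of group 1 was the higher of its pair in both stages. Gm5458 and Gm10339 are predicted genes whose reads could be shared with near-identical copies, and their values are uncertain for that reason.

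**Figure D3:**
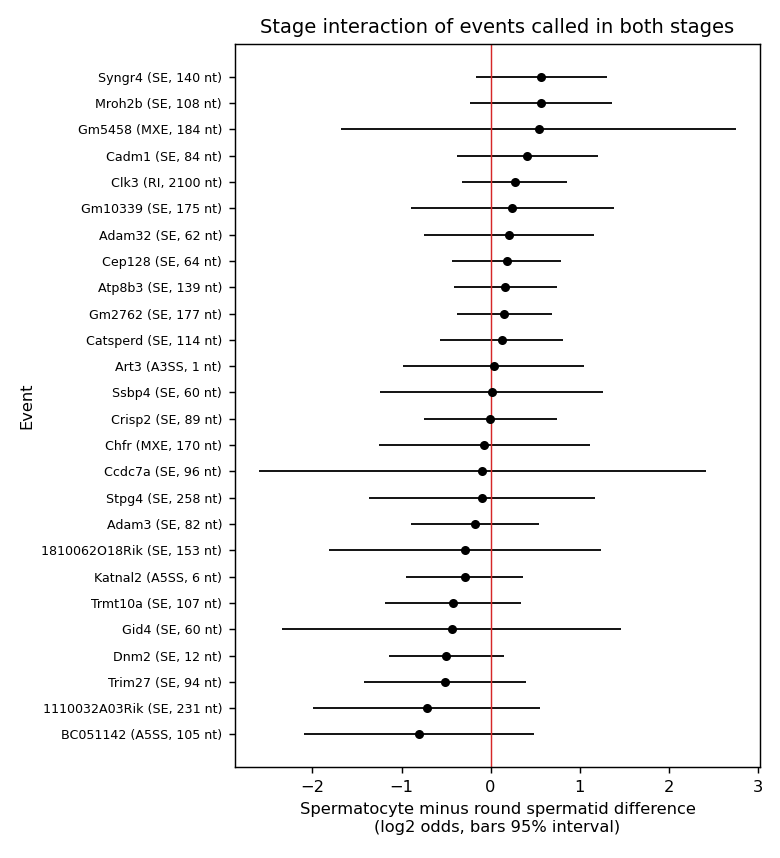
Interaction in log2 odds on the x axis, with its 95% interval as a bar, for events called in both stages, 1 per gene and without Larp7. SE, MXE, A3SS, A5SS and RI stand for cassette exon, mutually exclusive exons, alternative 3′ and 5′ splice site and retained intron. Every interval of these 26 events holds 0, and the points lie between -0.80 and 0.57.

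Genes that regulate splicing were examined as a list of 62, of which 60 had 363 tested events. In spermatocytes 36 of these events in 22 genes (9.92%, against 1.82% of all tested events) were called, 11 higher and 25 lower in group 1. In round spermatids 3 events were called (0.826%, against 0.45% of all tested events), all of Clk3. The interaction was called for 0 events, had an unadjusted p below 0.05 for 39 (10.7%, against 8.22% of all tested events) and a median of -0.13, against -0.08 over all tested events. Of the 36, 30 had the same sign in round spermatids and 33 were smaller there. Over all 590 spermatocyte calls these counts were 478 (81%) and 492. The 36 were picked by their call in spermatocytes, so their counts and sizes are a description. Some are overlapping events of Rsrp1 or of Srsf6 that share the same skipping reads, so the 36 are not independent. Genes of the list also had fewer reads in the later stage. Their summed CPM (event reads scaled to a fixed total per library) was 16844 to 20070 in spermatocytes and 8208 to 9126 in round spermatids. The median absolute difference of the 36 events was 1.05 log2 odds in spermatocytes, with 0.57 along the same direction in round spermatids.

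Clk3, a kinase that phosphorylates SR proteins, was the only gene of that list with calls in round spermatids. Its 2100-nt intron (57758724 to 57760823 on chromosome 9) had retention levels of 11.5% and 11.7% in group 1 against 20.8% and 18.0% in group 2 spermatocytes and of 8.43% and 7.66% in group 1 against 16.8% and 15.1% in group 2 round spermatids. The level was lower in group 1 in both stages, and the interaction was 0.27 (SE 0.30, 95% interval -0.32 to 0.86). Clk4, a related kinase, had a 67-nt exon (chromosome 11, 51268165 to 51268231) at 49.8% and 41.9% in group 1 against 14.3% and 20.9% in group 2 spermatocytes. The order held in round spermatids, at 35.5% and 28.7% in group 1 against 21.8% and 16.7% in group 2, where the event was not called (limma adjusted p = 0.15), and the interaction was 1.0 (SE 0.44, adjusted p = 0.59).

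Among SR proteins, which bind exonic enhancers, Srsf5 had a 1229-nt intron (chromosome 12, 80947866 to 80949094) whose retention in spermatocytes was 14.7% and 14.0% in group 1 against 30.5% and 25.1% in group 2. In round spermatids its retention was 15.5% and 13.6% in group 1 against 25.3% and 18.3% in group 2, so the groups were apart in both stages and the interaction was -0.49 (SE 0.28). A 1283-nt Srsf6 intron (162932143 to 162933425 on chromosome 2) had levels of 21.2% and 27.5% in group 1 against 41.8% and 49.8% in group 2 spermatocytes and of 16.3% and 17.6% in group 1 against 23.7% and 29.3% in group 2 round spermatids, with an interaction of -0.57 (SE 0.41). The intervals of both interactions reached 0.

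Other regulators kept their order less clearly. An 85-nt exon of Rbm5, an RNA-binding protein needed for spermatid differentiation in mouse, was included at 57.3% and 61.0% in group 1 against 79.0% and 77.2% in group 2 spermatocytes, and at 49.4% and 66.0% in group 1 against 64.6% and 74.4% in group 2 round spermatids, where the groups overlapped. A 45-nt exon of Rsrp1, an arginine- and serine-rich protein, was included at 32.7% and 35.4% in group 1 against 9.06% and 9.63% in group 2 spermatocytes and at 22.9% and 8.40% in group 1 against 5.50% and 19.0% in group 2 round spermatids. Its interaction was 1.85 (SE 0.79, limma adjusted p = 0.59), with libraries of both round spermatid groups interleaved. An exon of Luc7l2, a U1-associated protein, stood at 45.7% and 48.1% in group 1 against 66.7% in both libraries of group 2 spermatocytes and at 62.5% and 58.4% in group 1 against 65.7% and 54.0% in group 2 round spermatids (interaction -1.10, SE 0.70).

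**Figure D4:**
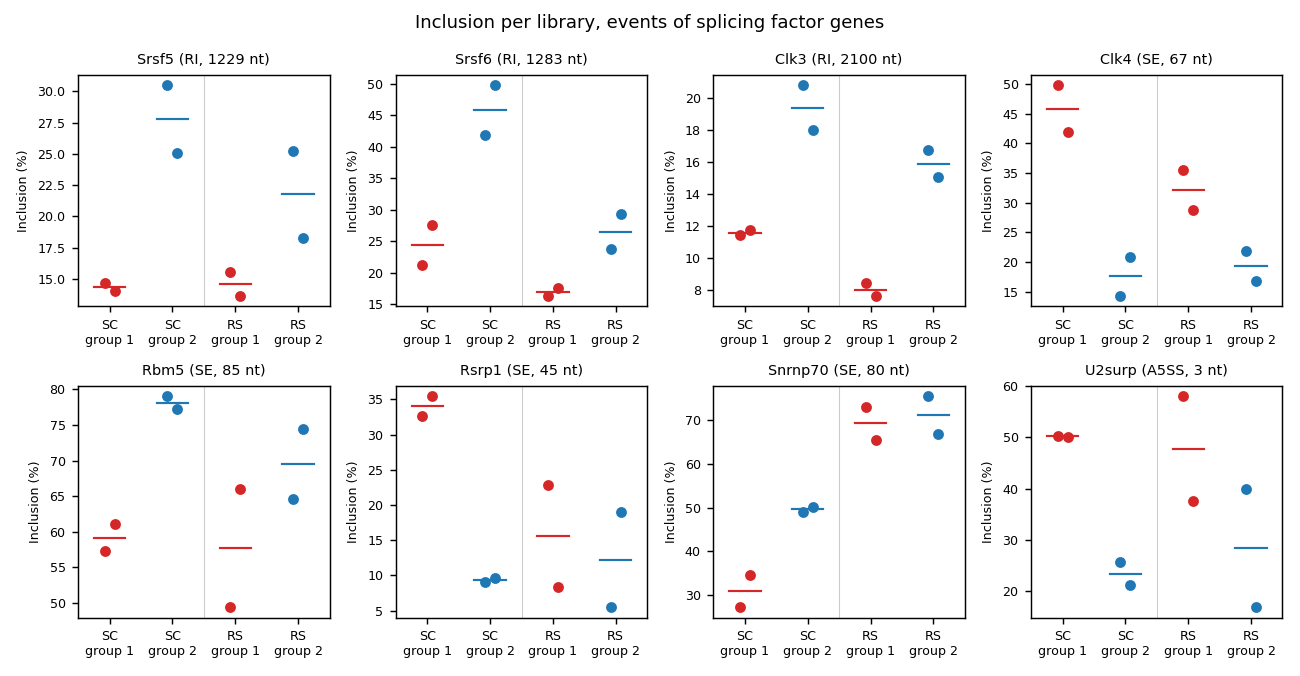
Inclusion level in percent of each library for 8 events of splicing factor genes called in spermatocytes, with axes that do not start at 0. SC are spermatocytes, RS round spermatids, red points group 1 and blue points group 2, and bars the mean of 2 libraries. Srsf5, Srsf6, Clk3 and Clk4 keep the groups apart in both stages, while Rbm5, Rsrp1, Snrnp70 and U2surp overlap in round spermatids.

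Core spliceosome genes had 91 tested events in 27 of 36 listed genes, with 6 called in spermatocytes (6.59%, against 1.82% of all tested events), 0 in round spermatids (against 0.45%) and 0 for the interaction. The median interaction of the list was 0.20. Snrnp70, the U1-70K protein, had an 80-nt exon (chromosome 7, 45395093 to 45395172) included at 27.2% and 34.5% in group 1 against 49.0% and 50.2% in group 2 spermatocytes and at 73.1% and 65.5% in group 1 against 75.4% and 66.8% in group 2 round spermatids. Inclusion was higher in every round spermatid library than in any spermatocyte library, and the interaction was -0.87 (SE 0.42, limma adjusted p = 0.59). A 3-nt alternative 5′ splice site of U2surp, a U2-associated protein, was used at 50.3% and 50.2% in group 1 against 25.6% and 21.2% in group 2 spermatocytes and at 58.0% and 37.6% in group 1 against 39.9% and 16.9% in group 2 round spermatids (interaction 0.93, SE 0.73). Genes that bind or modify U6, which included 47 tested events in 14 of 18 listed genes, had 0 events called in either stage and 0 for the interaction. The shares over all tested events were 1.82% in spermatocytes and 0.45% in round spermatids, and 0 of 47 is near them. An unadjusted interaction p below 0.05 was reached by 2 of the 47 (4.26%, against 8.22% of all tested events).

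Of the 7SK and P-TEFb genes, 11 of 14 had 39 tested events, with 5 called in spermatocytes (12.8%, against 1.82% of all tested events) and 1 in round spermatids (2.56%, against 0.45%). Larp7 itself held 7 of the 39 tested events and 3 of the 5 spermatocyte calls, and Cdk9 and Ell the others. The 1 round spermatid call was also of Larp7, the cassette exon nearly absent from group 1. That exon serves to relate the groups of both stages, so these shares mostly describe Larp7. Cdk9, the kinase of P-TEFb, had a 224-nt alternative 3′ splice site form at 28.4% and 29.3% in group 1 against 42.0% and 44.1% in group 2 spermatocytes and at 43.8% and 55.4% in group 1 against 48.5% and 61.8% in group 2 round spermatids. The groups overlapped in the later stage, and the interaction was -0.71 (SE 0.64). Ell, an elongation factor, had a 61-nt exon at 90.1% and 89.5% in group 1 against 96.1% and 98.6% in group 2 spermatocytes and at 97.5% and 95.2% in group 1 against 97.2% and 98.9% in group 2 round spermatids (interaction -0.88, SE 0.96).

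Meiosis genes had 270 tested events in 35 of 50 listed genes, with 11 called in spermatocytes (4.07%, against 1.82% of all tested events), 0 in round spermatids (against 0.45%) and 0 for the interaction. The 11 lay in Brdt, Stag3, Sycp2, Hormad1 and Spo11. A 35-nt exon of Sycp2, a synaptonemal complex protein, was included at 75.9% and 78.1% in group 1 against 61.4% and 63.7% in group 2 spermatocytes and at 85.3% and 84.6% in group 1 against 77.4% and 76.2% in group 2 round spermatids. Group 1 was higher in both stages, and the interaction was 0.27 (SE 0.50). A 71-nt exon of Stag3, the meiotic cohesin subunit, turned the other way, at 85.0% and 88.0% in group 1 against 91.7% and 93.7% in group 2 spermatocytes and at 99.4% and 99.2% in group 1 against 98.9% and 98.0% in group 2 round spermatids. The interaction was -2.04 (SE 0.83, limma adjusted p = 0.59). This exon held only 4 to 13 skipping reads per round spermatid library and was not called there (limma adjusted p = 0.65). A 201-nt Stag3 exon with the same skipping reads also changed sign. The 102-nt and 80-nt exons and the 416-nt intron of Stag3, also called in spermatocytes, kept their sign.

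Acrosome and sperm surface genes held 556 tested events in 32 of 43 listed genes. In spermatocytes 27 events of 11 genes (4.86%, against 1.82% of all tested events) were called. Of these events 24 were lower in group 1, while 78.1% of all spermatocyte calls were lower. Several are overlapping events of Catsperg1 and Catsperg2 that share the same skipping reads, so the 27 are not independent. Calls in round spermatids came to 10 events of 10 genes (1.80%, against 0.45%), with 3 called in both stages and 0 for the interaction. Besides Catsperd, Adam3 and Adam32, which were called in both, round spermatids had calls in Calr3, Catsper1, Hk1, Izumo1, Spaca3, Spaca7 and Gapdhs. Catsper1, the pore subunit of CatSper, had a 114-nt exon at 94.0% and 97.0% in group 1 against 96.1% and 97.9% in group 2 spermatocytes and at 90.0% and 91.1% in group 1 against 97.9% and 96.4% in group 2 round spermatids. The groups overlapped in spermatocytes, and the interaction was 1.09 (SE 1.38). Izumo1, the sperm protein that binds the egg receptor Juno, had a 319-nt intron retained at 63.1% and 59.2% in group 1 against 34.7% and 53.3% in group 2 spermatocytes and at 54.5% and 55.6% in group 1 against 34.9% and 48.6% in group 2 round spermatids. Group 1 was higher in both stages, and the interaction was 0.01 (SE 0.71).

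Flagellum and cilium genes had 629 tested events in 61 of 68 listed genes, with 14 called in spermatocytes (2.23%, close to the 1.82% of all tested events), 5 in round spermatids (0.795%, against 0.45%), 0 in both and 0 for the interaction. A 297-nt exon of Cep164, a centriole appendage protein, was included at 80.4% and 82.7% in group 1 against 97.5% and 98.2% in group 2 spermatocytes and at 97.4% and 93.7% in group 1 against 97.9% and 99.2% in group 2 round spermatids. The groups were apart in both stages (interaction -1.49, SE 1.13). Cspp1, a centrosome and spindle protein, had a different exon called in each stage. Its 24-nt exon stood at 22.9% and 11.9% in group 1 against 4.88% and 4.02% in group 2 spermatocytes and at 12.7% and 4.87% in group 1 against 5.11% and 8.69% in group 2 round spermatids. The 153-nt exon stood at 96.3% and 98.4% in group 1 against 97.1% and 94.7% in group 2 spermatocytes and at 91.9% and 88.3% in group 1 against 65.4% and 79.9% in group 2 round spermatids. Of 171 events of piRNA and germ granule genes, in 21 of 25 listed genes, 3 were called in spermatocytes (Rnf17, Ddx25 and Piwil1) and 0 in round spermatids. These shares, 1.75% and 0%, are near the 1.82% and 0.45% of all tested events.

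Calls were also counted by event type. Cassette exons had 67 higher and 339 lower calls in spermatocytes and 30 higher and 84 lower calls in round spermatids, among 22893 tested (1.77% and 0.498%, against 1.82% and 0.45% of all types). Retained introns had 23 higher and 67 lower calls in spermatocytes and 4 higher and 6 lower in round spermatids, among 2129 tested (4.23% and 0.47%). Alternative 5′ splice sites had 11 higher and 23 lower in spermatocytes and 2 higher and 9 lower in round spermatids, among 1469 tested (2.31% and 0.749%). Alternative 3′ splice sites had 9 higher and 17 lower in spermatocytes and 2 higher and 0 lower in round spermatids, among 2331 tested (1.12% and 0.0858%). Mutually exclusive exons had 19 higher and 15 lower in spermatocytes and 7 higher and 2 lower in round spermatids, among 3602 tested (0.944% and 0.25%). The median interaction was -0.16 for cassette exons and between -0.04 and -0.01 for the other types. Mean cassette exon inclusion was 83.9% and 84.1% in group 1 against 85.0% and 84.8% in group 2 spermatocytes, and 84.9% and 84.8% in group 1 against 85.3% and 85.1% in group 2 round spermatids. Group 2 was the higher one in both stages.

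Event reads also gave a readout of abundance for 8510 genes. It is the CPM (event reads scaled to a fixed total per library) of the most covered matched event of each gene. The splicing fit compares the forms of an event, but the same reads set its read minimum and weights, so the readouts are not independent. The CPM stands in for gene expression and can move with splicing of that event. The stage interaction of abundance was called for 0 genes (limma, 0%), with 853 genes (10%) at an unadjusted p below 0.05 and a smallest adjusted p of 0.12. Without library 2 of group 1 spermatocytes 62 genes were called, and with the round spermatid groups in the other order 322. Within spermatocytes 283 genes (3.33%) were called, 251 higher (2.95%) and 32 lower (0.376%) in group 1, and within round spermatids 7 genes (0.0823%), 6 higher (0.0705%) and 1 lower (0.0118%). The median over all genes was 0.14 in spermatocytes and 0.08 in round spermatids on the log2 scale. With median-ratio scaling it was -0.01 and -0.05, and the spermatocyte calls split into 159 higher and 59 lower.

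Larp7 stood at 227 and 268 CPM in group 1, against 1390 and 1310 CPM in group 2 spermatocytes, and at 308 and 392 in group 1 against 1337 and 1448 CPM in group 2 round spermatids. All libraries of group 1 were below all of group 2, and the interaction was -0.45 on the log2(CPM + 0.5) scale (limma adjusted p = 0.55). Zfy2, a Y-linked zinc finger gene that acts in meiosis, had the smallest interaction p, at 18.9 and 8.54 in group 1 against 0.898 and 0.691 CPM in group 2 spermatocytes and 15.9 and 14.8 in group 1 against 18.1 and 11.9 CPM in group 2 round spermatids. Syce2, a synaptonemal complex protein, stood at 109 and 73.7 in group 1 against 41.0 and 38.2 CPM in group 2 spermatocytes and at 93.9 and 98.6 in group 1 against 130 and 125 CPM in group 2 round spermatids. Sod1, the cytosolic superoxide dismutase, stood at 279 and 146 in group 1 against 61.7 and 65.8 CPM in group 2 spermatocytes and at 200.1 and 205 in group 1 against 225 and 214 CPM in group 2 round spermatids. Zfy2, Syce2 and Sod1 were each higher in group 1 than in group 2 spermatocytes, and none of these interactions passed the test. They were picked from the 12 genes of smallest p, which do not all share that direction. Afm, also among the 12, stood at 0.12 and 0.43 in group 1 against 8.18 and 7.40 CPM in group 2 spermatocytes (interaction -2.26, limma adjusted p = 0.21).

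Markers of cell types moved with the sample group in spermatocytes. All 3 measured spermatogonia markers of 10 listed (Sohlh1, Stra8 and Dazl) were called higher in group 1, and their summed level was 275 and 113 in group 1 against 43.8 and 39.7 CPM in group 2. Of the 3 measured Sertoli cell markers of 8, Clu and Ctsl were called higher, and the sum was 215 and 143 in group 1 against 43.4 and 74.1 CPM in group 2, while Wt1 was at 2.69 CPM or less in every library. Sums of the 2 measured markers of Leydig, peritubular and immune cells of 8 were 29.6 and 19.0 in group 1 against 22.8 and 26.1 CPM in group 2, with 0 called. Of 9 spermatocyte markers, Dmc1, Sycp1, Sycp3 and Hormad1 were called higher in group 1, and the sums were 5610 and 5005 in group 1 against 5079 and 4413 CPM in group 2. The other 5 had differences below 0 and were not called, with log2 values of -0.51 for Spo11, -0.39 for Ccna1, -0.32 for Piwil1, -0.06 for Tbpl1 and -0.04 for Mybl1 (limma adjusted p between 0.12 and 0.94). Library 1 of group 1 had the most spermatogonial and Sertoli cell marker reads among the spermatocyte libraries.

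In round spermatids none of these lists had a called marker. Spermatogonia markers summed to 18.7 and 11.5 in group 1 against 16.4 and 13.0 CPM in group 2, Sertoli cell markers to 69.4 and 93.5 in group 1 against 44.6 and 56.3 CPM in group 2, and elongating spermatid markers (3 of 8) to 5991 and 7071 in group 1 against 11086 and 8147 CPM in group 2. Round spermatid markers (5 of 8) summed to 2019 and 2205 in group 1 against 2325 and 2264 CPM in group 2 there, and to 676 and 726 in group 1 against 725 and 792 CPM in group 2 spermatocytes. Summed spermatocyte markers were higher in all 4 spermatocyte libraries, and summed round and elongating spermatid markers in all 4 round spermatid libraries, as their labels name them. Single spermatocyte markers did not all follow, since Ccna1, Tbpl1 and Dmc1 overlapped between the stages. Ccna1 stood at 372 to 559 CPM in spermatocytes and at 381 to 613 CPM in round spermatids. The part of spermatogonia and Sertoli cells in the splicing results was not tested. Leaving out library 1 of group 1 spermatocytes is no test of them. Library 2 of that group still held 113 CPM of spermatogonia markers and 143 CPM of Sertoli cell markers.

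**Figure D5:**
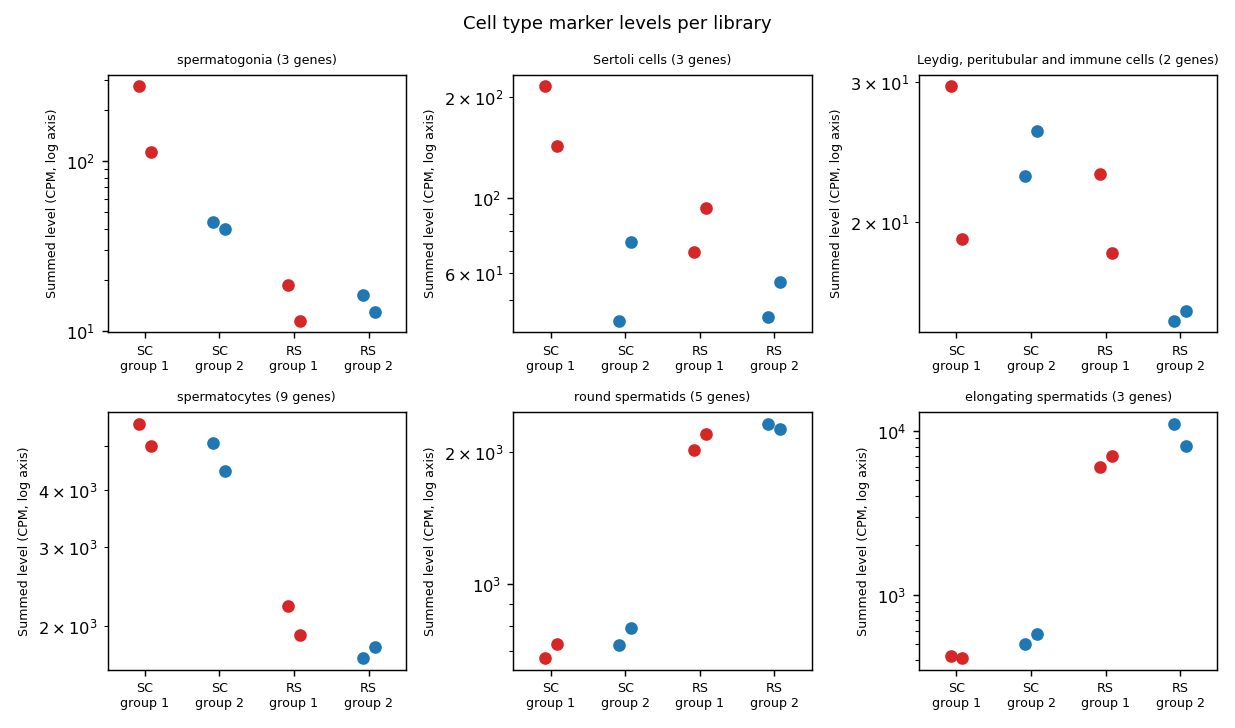
Summed level in CPM, on a log axis, of the measured markers of 6 cell types in each library. SC are spermatocytes, RS round spermatids, red points group 1 and blue points group 2. Spermatogonia markers stand at 275 and 113 CPM in group 1 spermatocytes and at 43.8 CPM or less in the other 6 libraries.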

How the data were processed

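The submitters' processing notes name STAR as the aligner and mm10 as the build, without versions. Per the file headers, the 10 deposited tables, 1 per stage and event type, hold inclusion and skipping read counts, form lengths and inclusion levels for 2 numbered sample groups. Deposited count cells hold both libraries of a group, separated by a comma, and were split. Levels recomputed from those counts lay within 0.0005 of the deposited fractions. The headers do not name genotypes, and genotype was not assigned from values; groups kept their header numbers, and their order was taken as the same in both stages.

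Events identical in both stages were tested when reads averaged at least 10 per library in each stage and each form had a read. Both forms received 0.5 extra reads on average, in proportion to an event's depth per library. The log2 odds, weighted by inverse counting variance, were modelled by limma 3.58.1 (R 4.3.3) over 4 groups and 8 libraries, with a variance trend on reads of the rarer form. Benjamini-Hochberg adjustment ran over all 32424 events, and an adjusted p below 0.05 was a call. Intervals are 95% intervals of this fit. Abundance was fitted with limma on log2(CPM + 0.5). The scripts were tested on simulated data. Overlapping events share reads, so summed event reads exceed sequenced depth. Floors cover counting error only.

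Named were all Larp7 events and, since none was called, the 12 genes with the smallest interaction p. For abundance, 12 called genes and the markers were to be named. Since no gene was called, some of the 12 genes of smallest p are given. Events called in a stage or in both, and the list members described, were chosen after their values were seen. The members and lists were chosen with earlier results of these data known. Alternatives are given in the closing section. Exon sequences were not used here. Plots used matplotlib 3.10.9 in Python 3.11.15.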

Additional observations from a re-analysis of the deposited data

How the results depend on the processing

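The interaction called 0 splicing events under a trend on total reads (with scaled or unscaled added reads), the quasi-binomial test (834 at an unadjusted p below 0.05), robust moderation, no minimum of reads, at least 5 reads of the rarer form, inclusion fractions and raw read odds. Without weights it called 18, each with a form at 0 reads in a group. With the round spermatid groups in the other order it called 412, and the 85-nt Larp7 intron gave 3.25 (called), Zmiz2 0.55 and Napb -0.91 (opposite in sign to the listed order). Leaving out 1 library gave 0 to 8 interaction calls, 138 to 830 calls in spermatocytes, 35 to 154 in round spermatids and 1.01 to 1.62 for the Larp7 intron. Spermatocyte and round spermatid calls were 124 and 15 with the trend on total reads, 110 and 14 with unscaled reads as well, 75 and 51 without weights, 2 and 7 on fractions, and 369 and 71 from the 4 libraries of the stage. With at least 5 reads of the rarer form, round spermatids had 83. The round spermatid difference of the Stpg4 exon, -2.01, was between -2.21 and 0.68 with 1 library left out, and reversed without round spermatid library 2 of group 1. The interaction of abundance called 0 genes under median-ratio scaling, no minimum and a pseudocount of 0.1 CPM, 322 in the other order and 0 to 62 with 1 library left out. For single events and genes, 192 results gave 3562 recomputed values. Of these values 2369 kept direction and side of the threshold, 1161 lost and 29 gained the call, and 3 reversed; 169 of the 192 results lost their call at least once. Except where fewer samples or events entered, the cause was not tested. The columns carry no replicate numbers, so no pairing is known. Chosen after seeing the data, a replicate block by position in the list, over all groups, called 8 interaction events (7 of them in the 12 genes of smallest p), 933 spermatocyte and 253 round spermatid events, and the 85-nt Larp7 intron at 1.33 (limma adjusted p = 0.032). A block by position across stages within a group called 0, with 1.39 for the intron. Deviations of equal positions correlated between -0.02 and 0.13 between groups over 9662 events, above 0.1 for 1 of 6 pairs of groups. Events called in both stages were likewise recounted without each library. Depth limits the rarer form: over all events the interaction's median SE was 1.42.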
